A study of Homo sapiens with 30 samples.

Results

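Cystatins are small inhibitors of papain-like cysteine proteases, and the 7 human genes considered here are CST1, CST2, CST3, CST4, CST6, CSTA and CSTB. They were chosen by gene symbol. Each is read from the array feature that the platform's probe table gives to that symbol alone. CST1, CST2, CST3, CST4, CST6 and CSTB each had 1 such feature and none shared with another gene, so that 6 of 7 members were described, out of 19912 genes with a feature of their own and 52329 features in all. CSTA is not analysed here. The family was taken up with earlier results of these data in view: CST1 and CST4 were known to differ steeply between RAF 96 h and RAF T0, and CST4 between replicative 2112 h and replicative T0. Those 2 comparisons are therefore given as descriptions without a test for every member. Differences of CST1, CST4 and their close relative CST2 from T0 are likewise not tested.

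WI-38, a widely used strain of normal human fetal lung fibroblasts, was followed along 2 courses into senescence, the lasting exit from division that cells enter after an activated oncogene or after exhausting their divisions. The labels' protocols give 1 growth condition for both courses, 3% oxygen with 5% carbon dioxide. Cells with a doxycycline-inducible RAF oncogene received 100 ng/ml doxycycline in the RAF course (12 h, 24 h, 48 h, 72 h and 96 h, after T0, which stands for 0 h). WI-38 cells were brought to proliferative exhaustion under 21% oxygen in the replicative course (T0, then 144 h, 264 h, 432 h and 624 h, and later 792 h, 1008 h, 1368 h and 2112 h). Of these, 432 h and 624 h stand in the sample labels but not in the list of times in the design text. Each of the 15 groups holds 2 arrays. RAF replicates are biological by the design text. For the replicative course nothing says so, and its p-values may reflect technical spread alone. For the T0 arrays neither doxycycline nor 21% oxygen is recorded, so that against T0, time cannot be told apart from the agent of a course. Values are the deposited log2 intensities, in steps of 0.1, of RNA from whole cultures, in which fewer cells of a kind and less RNA per cell cannot be told apart. A group of 2 is given as mean ± SD, and a difference as log2 units with its standard error (SE).

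The arrays fall apart in a way that the 2 courses do not explain. The first principal component took up 64.2% of the variance. Its upper end, from 25.24 upwards, held 12 arrays, namely replicative T0 and all replicative times from 624 h on. Its lower end, from -37.23 downwards, held the other 18, namely the whole RAF course with replicative 144 h, 264 h and 432 h. Mitotic genes were lowest in the RAF course at T0, where the mean of 12 of them, centred on all arrays, was -1.64, against 1.62 at 12 h and 1.24 at 96 h. From the labels of a course into senescence, the reverse order would be looked for. Why the order differs was not tested. In the replicative course T0 stood at 1.94 and 624 h at 1.55, the 792 h and 1008 h groups at -1.29 and -1.3, and the 2112 h group at 1.45. The mean of 12 ERK pathway target genes (ERK output), centred likewise, lay between -0.58 and -0.40 in every lower-end group. In the RAF course it was -0.58 under the T0 label and -0.40 under the 96 h label. In the upper end 624 h had -0.49 and replicative T0 0.58, while the groups from 792 h on had 0.88 to 1.17. These late groups thus had more ERK output than any doxycycline group. Whether the labels match the cultures was not tested. Directions are therefore those between labels, and comparisons within 1 end are told from those between ends. Of 10 fibroblast markers measured, 8 lay above a level of 8, with vimentin (VIM) at 11.84, and the group mean of the list ran from 9.04 at replicative 792 h to 10.09 at replicative 144 h. None of 10 keratinocyte markers (median 5.08) or 8 secretory epithelium markers (median 5.81) lay above 8, against a median of 5.5 for all features of an array. Of 5 leukocyte markers (median 6.06) 1 did, CD68 at 9.87, and of 7 endothelial markers (median 5.63) 1 did, TEK at 8.07. Group means of these 4 lists moved by less than those of the fibroblast list, from 6.29 to 6.69 for the leukocyte list.

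Cystatins of type 2 (CST1, CST2, CST3, CST4 and CST6) carry a signal peptide and are secreted, while type 1 cystatins or stefins (CSTA and CSTB) stay inside the cell. They bind in the active-site cleft of cathepsins such as B, L, H and S, and some also inhibit legumain through a separate site. CST1, CST2 and CST4 encode the salivary cystatins SN, SA and S, which are close copies of each other. A probe for 1 of them may therefore also catch RNA of another, and their values are not independent measurements. In RefSeq (GRCh38.p14) these 3 genes and CST3 lie on chromosome 20 in the order CST3, CST4, CST1, CST2, with CST5 next to CST2 and CST9 next to CST3. CST6 is on chromosome 11 and CSTB on chromosome 21.

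A promoter sequence was held for 1 of the 7 members, CST3, and it is shown because CST3 peaked in the same labelled group as its chromosome 20 neighbours CST1, CST2 and CST4. The 250 bases before its start (RefSeq, GRCh38.p14, chr20:23637956-23638205, minus strand, 5′ to 3′, with the GC box GGGCGG in capitals) read as follows.
CST3: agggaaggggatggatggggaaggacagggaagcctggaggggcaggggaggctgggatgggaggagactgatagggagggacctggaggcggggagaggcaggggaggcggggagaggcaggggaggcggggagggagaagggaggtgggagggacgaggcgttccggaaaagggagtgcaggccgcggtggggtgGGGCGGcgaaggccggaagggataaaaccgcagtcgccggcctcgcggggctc
The stretch is 70.8% G and C, against a median of 58% over 35116 promoters. Searched on both strands, it holds 1 match to GGGCGG, which begins 53 bases before the start and which 42.6% of promoters of this length hold. It holds none to the AP-1 motif TGANTCA (6.57% of promoters) or to the TATA box TATAAA (10.7%). The motifs do not overlap, and a missing match says only that these letters are not in this window.

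CST1, CST4, CST2 and CST3 were highest in the same labelled group, replicative 792 h, and CST6 and CSTB varied little. CST1, cystatin SN, had group means from 6.10 to 11.70, a span of 5.60 log2 units that 24 of 52329 features reached or passed. CST4, cystatin S, spanned 6.15 units, reached or passed by 14 features, and CST2, cystatin SA, 3.95 units, reached or passed by 140. CST3, cystatin C, the widely secreted inhibitor measured in blood as a marker of kidney function, spanned 1.25 units, which 6589 features reached or passed. CST6, cystatin E/M, a skin and gland inhibitor of legumain and cathepsin V, and CSTB, the intracellular stefin B whose loss causes a progressive myoclonus epilepsy, each spanned 0.30 units, less than the median of 0.60 over all features. The spans of CST1 and CST4 include the groups that led to the choice of the family.

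For CST1 in the RAF course, the T0 arrays read 9.4 and 9.0, the 12 h arrays both 6.1, the 24 h arrays 7.4 and 8.1, the 48 h arrays 7.4 and 7.2, the 72 h arrays 6.9 and 6.6 and the 96 h arrays 6.3 and 6.6. It was therefore highest at T0, lowest at 12 h, and after 24 h each group mean was lower than the last. In the replicative course the T0 arrays read 7.1 and 7.2, the 144 h arrays 6.0 and 6.2, the 264 h arrays 9.7 and 9.0, the 432 h arrays both 8.2 and the 624 h arrays both 6.6. Of the later groups, the 792 h arrays read 11.6 and 11.8, the 1008 h arrays 11.1 and 11.2, the 1368 h arrays 10.3 and 10.2 and the 2112 h arrays both 8.5. CST1 thus made 2 peaks over the replicative labels, at 264 h and at 792 h, each followed by lower values. In the order of its 15 group means from high to low, 8 of the 14 neighbouring pairs had arrays that did not overlap. The 5 highest means were at replicative 792 h, 1008 h, 1368 h and 264 h and RAF T0, of which the last neighbouring pair overlapped. At the low end, RAF 12 h and replicative 144 h had the same mean of 6.10.

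CST4 followed the same course of values. Under the RAF labels the T0 arrays both read 7.9, the 12 h arrays 5.0 and 5.2, the 24 h arrays 6.4 and 6.8, the 48 h arrays 6.5 and 6.2, the 72 h arrays 5.9 and 5.7 and the 96 h arrays 5.3 and 5.4. Again T0 was highest and 12 h lowest. Under the replicative labels the T0 arrays both read 6.0, the 144 h arrays both 5.4, the 264 h arrays 8.7 and 7.9, the 432 h arrays 6.9 and 7.1 and the 624 h arrays 5.5 and 5.3. After that the 792 h arrays read 11.2 and 11.3, the 1008 h arrays both 10.5, the 1368 h arrays 9.4 and 9.3 and the 2112 h arrays 7.3 and 7.6. Arrays of 10 of the 14 neighbouring pairs in the order of its means did not overlap, and the 7 highest groups came in the same order as for CST1. At the low end, the means at replicative 144 h (5.40), replicative 624 h (5.40) and RAF 96 h (5.35) did not differ beyond their spread. The arrays of these groups and of RAF 12 h lay at or below the array median of 5.5. No background call was possible there, which limits every CST4 difference that uses these groups.

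**Figure D1:**
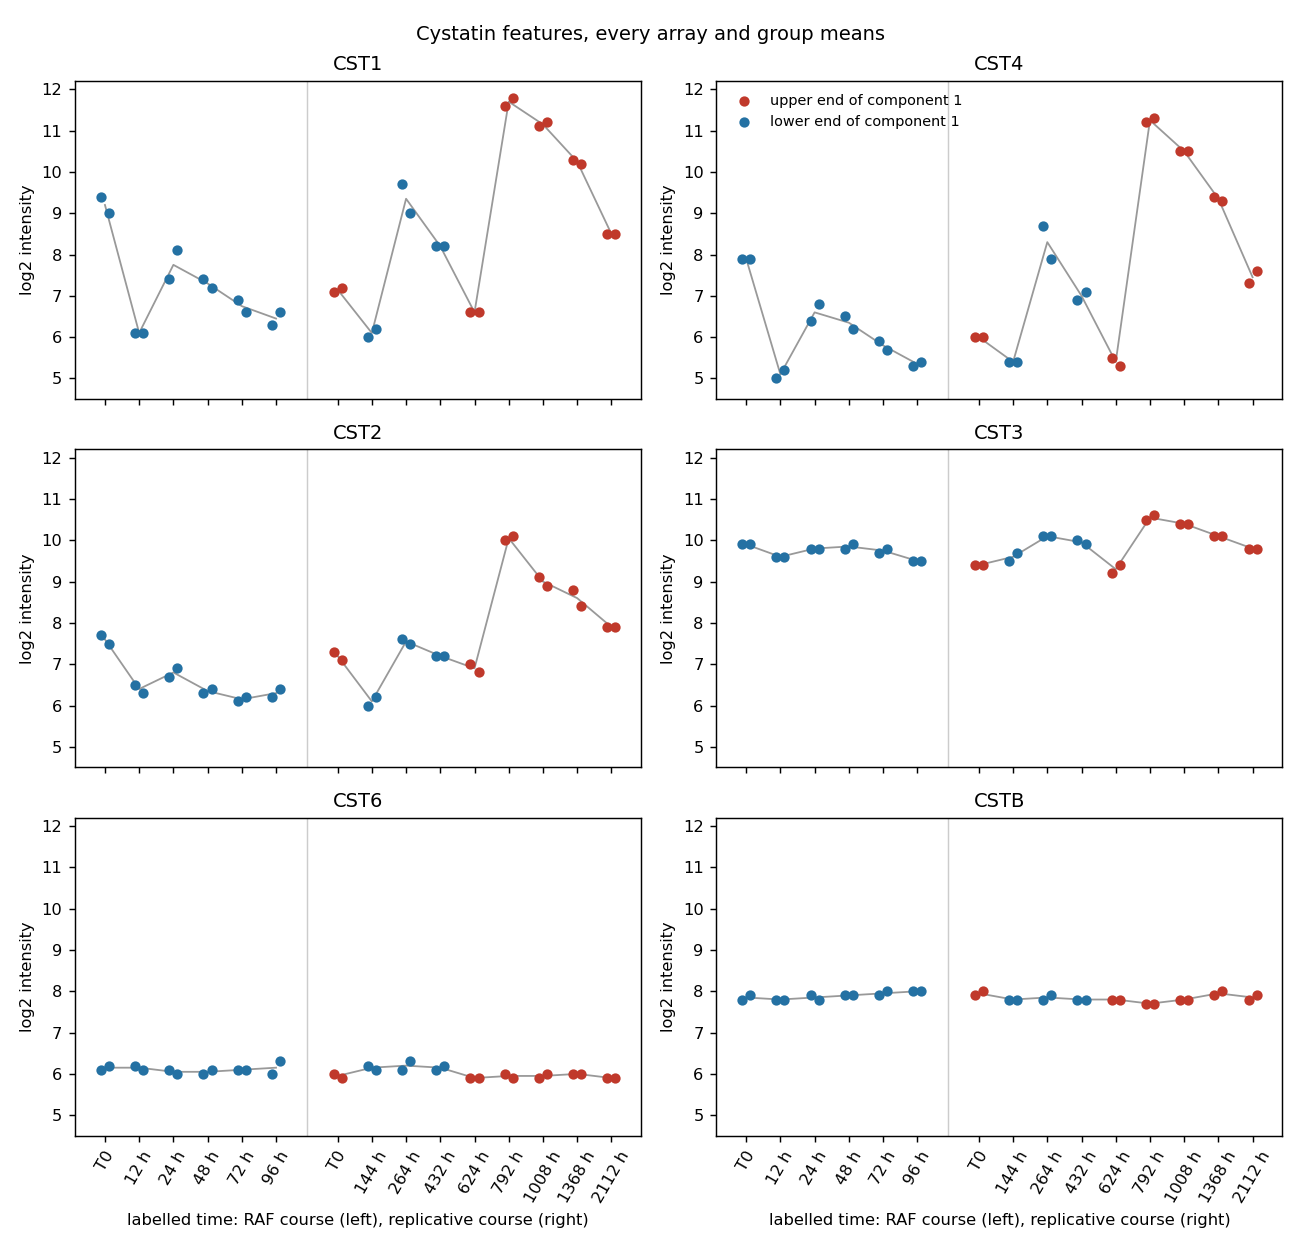
Log2 intensity (vertical axis, same range in each panel) of 6 cystatin features in each array, by labelled time, with the RAF course left and the replicative course right of the thin line. Points are single arrays, coloured by their end of the first principal component, and lines join group means; CST1, CST4, CST2 and CST3 peak together at replicative 792 h, where CST1 reads 11.6 and 11.8, while CST6 and CSTB stay within 0.4 and 0.3 units.

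CST2 kept the order at its top and was flatter below. In the RAF course the T0 arrays read 7.7 and 7.5, the 12 h arrays 6.5 and 6.3, the 24 h arrays 6.7 and 6.9, the 48 h arrays 6.3 and 6.4, the 72 h arrays 6.1 and 6.2 and the 96 h arrays 6.2 and 6.4. Unlike CST1, its lowest RAF mean was at 72 h (6.15 ± 0.07), and it overlapped with the arrays at 96 h. Among the replicative groups the T0 arrays read 7.3 and 7.1, the 144 h arrays 6.0 and 6.2, the 264 h arrays 7.6 and 7.5, the 432 h arrays both 7.2 and the 624 h arrays 7.0 and 6.8. Later the 792 h arrays read 10.0 and 10.1, the 1008 h arrays 9.1 and 8.9, the 1368 h arrays 8.8 and 8.4 and the 2112 h arrays both 7.9. The 4 groups from 792 h to 2112 h lay above all others, with no overlap between neighbours, whereas for CST1 the arrays at 264 h and RAF T0 stood above 2112 h.

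CST3 had its highest means in the same replicative groups, 792 h and 1008 h, over a narrower range, and differed from the others at replicative T0, where it was near its lowest and below 144 h while CST1, CST2 and CST4 were above 144 h. Along the RAF labels the T0 arrays both read 9.9, the 12 h arrays both 9.6, the 24 h arrays both 9.8, the 48 h arrays 9.8 and 9.9, the 72 h arrays 9.7 and 9.8 and the 96 h arrays both 9.5. Along the replicative labels the T0 arrays both read 9.4, the 144 h arrays 9.5 and 9.7, the 264 h arrays both 10.1, the 432 h arrays 10.0 and 9.9 and the 624 h arrays 9.2 and 9.4. Of the rest, the 792 h arrays read 10.5 and 10.6, the 1008 h arrays both 10.4, the 1368 h arrays both 10.1 and the 2112 h arrays both 9.8. Its peak at 792 h and its lowest mean at 624 h (9.30 ± 0.14) are next to each other in labelled time. Only 5 of its 14 neighbouring pairs were separate, since most means lay within 0.1 of the next.

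CST6 lay between 5.9 and 6.3 in all 30 arrays, and no neighbouring pair of its 14 was separate. Its group means ran from 5.9 at replicative 624 h and 2112 h to 6.20 ± 0.14 at replicative 264 h. All 6 groups of the upper end had means of 6.00 or less, and all 9 of the lower end 6.05 or more. CSTB lay between 7.7 and 8.0, with its lowest mean at replicative 792 h (7.70), the group in which CST1, CST2, CST3 and CST4 were highest, and its highest at RAF 96 h (8.0). That lowest group was the single one of its 14 neighbouring pairs with no overlap.

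Over the 15 group means, CST1 and CST4 correlated at r = 0.994, CST1 and CST2 at 0.948, and CST1 and CST3 at 0.913. Within the 6 groups of the upper end these were 0.999, 0.975 and 0.997, and within the 9 of the lower end 0.993, 0.951 and 0.900. CST6 and CSTB correlated with CST1 at -0.317 and -0.360 over all groups. CST6 turned to 0.547 in the upper and 0.234 in the lower end, and CSTB stayed below 0 at -0.428 and -0.188. These are descriptions: the groups share 2 courses and their arrays, and the salivary cystatins may share signal between probes.

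The tests that follow use neither T0 nor the last time of a course unless stated. A member passed at a Benjamini-Hochberg adjusted p under 0.05 over all 52329 features in limma's moderated test, with 2 arrays a group and the spread estimated over all groups of a course. Since the members were chosen with results in view, their counts are set beside the share of all features called and are not read as evidence about the family.

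Among the RAF arrays from 12 h to 72 h, CST1, CST2, CST3 and CST4 varied and CST6 and CSTB did not pass. All lie at the lower end. Joint limma tests gave adjusted p of 0.00286 for CST4, 0.0155 for CST1, 0.0358 for CST2, 0.0494 for CST3, 0.299 for CSTB and 0.809 for CST6, so that 4 of 6 members passed where 10.2% of features did. CST4 passed under every alternative run, at an adjusted p of at most 0.0344. CST1 lost the call without RAF 12 h replicate 1 (adjusted p 0.0961) or replicate 2 (0.088). CST2 lost it when any 1 of the 8 arrays was left out, with adjusted p from 0.061 without RAF 48 h replicate 2 to 0.149 without RAF 24 h replicate 2. CST3 lost it without any array but RAF 48 h replicate 1, at up to 0.176 without RAF 12 h replicate 1, and also under quantile normalization (0.078) and in a model of all 30 arrays (0.0517).

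Between 12 h and 24 h, CST1 rose by 1.65 (SE 0.24, adjusted p 0.00374), a 3.14-fold difference, and CST4 by 1.5 (SE 0.15, adjusted p 0.00073). Both stayed past the threshold in every alternative, at adjusted p of at most 0.0342 and 0.0104. No fold is given for CST4, since its 12 h arrays lay below the array median of 5.5. The CST1 arrays at 12 h (both 6.1) had no background call either, which limits its fold. CST3 rose by 0.20 (SE 0.05, adjusted p 0.0321), a call lost without either array of 24 h (adjusted p 0.097 and 0.0996) or either array of 12 h (0.102 and 0.111). CST2 was higher by 0.40 with no overlap of arrays and did not pass (adjusted p 0.0554). So 3 of 6 members rose where 6.02% of features did, and 12.6% changed in either direction. Alongside, the mitotic gene level went from 1.62 to -0.82, and its part in these differences was not tested.

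After 24 h the salivary cystatins were lower again without a called step. No feature passed limma's test between 24 h and 48 h or between 48 h and 72 h, where 6145 and 5654 of all features had an unadjusted p under 0.05. At that level stood CST2 in the first step, at -0.45 (SE 0.11, adjusted p 0.261), and CST4 in the second, at -0.55 (SE 0.15, adjusted p 0.317). CST1 differed by -0.45 (SE 0.24) and -0.55 (SE 0.24), at adjusted p of 0.504 and 0.459. From 12 h to 72 h CST4 remained higher by 0.70 (SE 0.15, adjusted p 0.0278), the 1 member to pass where 4.48% of features rose and 4.67% fell. That call was lost without any 1 of its 4 arrays: the adjusted p was 0.0841 and 0.16 without RAF 72 h replicate 2 and replicate 1, and 0.0743 and 0.155 without RAF 12 h replicate 2 and replicate 1. CST1 (0.65, adjusted p 0.148), CST3 (0.15, adjusted p 0.11) and CST2 (-0.25, adjusted p 0.241) did not pass, and CST2 differed in sign from its relatives. In a model of all 30 arrays CST1 passed (adjusted p 0.0442), and so did CST3 among features at or above the median level (0.0425).

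Against RAF T0 the 12 h arrays differed by -3.10 (SE 0.24) for CST1, -2.80 (SE 0.15) for CST4 and -1.20 (SE 0.11) for CST2, given without a test and with no overlap of arrays. CST3 fell by 0.30 (SE 0.05, adjusted p 0.00352), while CST6 (0.00, adjusted p 1) and CSTB (-0.05, adjusted p 0.592) did not pass. That is 1 of the 3 members tested, in a comparison where 19.4% of features changed and 9.73% fell. Between T0 and 96 h, the comparison that led to the choice, the differences were -2.75 (SE 0.24) for CST1, -2.55 (SE 0.15) for CST4, -1.30 (SE 0.11) for CST2 and -0.40 (SE 0.05) for CST3, with no overlap of arrays. Mitotic genes were lowest at T0, so that these falls run from the RAF label with the least mitotic signal to labels with more.

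In the replicative course from 144 h to 1368 h all 6 members passed the joint test, where 72.5% of features did, and this comparison spans both ends. Within the lower end (144 h to 432 h), CST1 (adjusted p 1.46e-06), CST4 (7.42e-06), CST2 (3.76e-05) and CST3 (0.00227) passed in limma, where 11.9% of features did, and CST6 (0.844) and CSTB (0.772) did not. Within the upper end (624 h to 1368 h) the same 4 passed at adjusted p of 9.12e-10, 1.13e-09, 1.15e-08 and 2.4e-07, and CSTB at 0.0222, where 32.2% of features did. CST6 (0.711) did not pass. Both joint limma tests took their spread from all 18 replicative arrays, not from 1 end alone. Among these groups CST1 and CST4 spread most at 264 h, in the lower end (SD 0.49 and 0.57). CSTB also lost its call over the whole span at adjusted p from 0.0516 to 0.159 when 1 array was left out, in 11 of 14 such omissions, the exceptions being both 264 h arrays and 1368 h replicate 1.

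Between 144 h and 432 h, both at the lower end, CST1 rose by 2.10 (SE 0.16, adjusted p 1.1e-05), CST4 by 1.60 (SE 0.19, adjusted p 0.000244), CST2 by 1.10 (SE 0.13, adjusted p 0.000174) and CST3 by 0.35 (SE 0.07, adjusted p 0.0105). CST6 and CSTB differed by 0.00. Thus 4 of 6 members rose where 6.16% of features did, and mitotic genes stood at 0.32 at 144 h and -1.01 at 432 h. In a model of the 6 lower-end replicative arrays alone, CST1 (adjusted p 0.0467) and CST2 (0.0171) kept the call and CST4 (0.0732) and CST3 (0.116) lost it. CST3 also lost it without 432 h replicate 1 (adjusted p 0.079) or 144 h replicate 1 (0.0885).

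The step from 432 h to 624 h crosses from the lower to the upper end, and 45.4% of features changed. CST1 fell by 1.60 (SE 0.16, adjusted p 1.58e-05), CST4 by 1.60 (SE 0.19, adjusted p 4.92e-05) and CST3 by 0.65 (SE 0.07, adjusted p 3.66e-05), all 3 under every alternative. CST6 fell by 0.25 (SE 0.07, adjusted p 0.0141), a call lost without 624 h replicate 1 (0.0574), 624 h replicate 2 (0.0568) or 432 h replicate 2 (0.103). CST2 (-0.30, adjusted p 0.0701) did not pass, and neither did CSTB (0.00, adjusted p 1). In all 4 members fell, where 24.4% of features did. The end of the first component and the labelled time cannot be told apart here.

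The steepest tested differences lay between 624 h and 792 h, both at the upper end. CST4 rose by 5.85 (SE 0.19, adjusted p 3.21e-10) and CST1 by 5.10 (SE 0.16, adjusted p 2.73e-10), a 34.3-fold difference of measured intensities. No fold is given for CST4, since its 624 h arrays (5.5 and 5.3) lay at or below the array median of 5.5 and no background call was possible. The 624 h arrays of CST1 (both 6.6) and CST2 (7.0 and 6.8) lay above that median but had no background call either. A level above the median does not show detection, so the folds of CST1 and CST2 are limited likewise. CST2 rose by 3.15 (SE 0.13, adjusted p 1.74e-09), 8.88-fold, and CST3 by 1.25 (SE 0.07, adjusted p 6.48e-08), 2.38-fold. These 4 of 6 members passed in every alternative, the model of the 12 upper-end arrays included, while 31.1% of features changed and 15.8% rose. CST6 (0.05, adjusted p 0.646) and CSTB (-0.10, adjusted p 0.202) did not pass. Between these labels the mitotic gene level went from 1.55 to -1.29 and the level of 12 target genes of the ERK pathway (ERK output, among them DUSP6 and SPRY4) from -0.49 to 1.09. The 792 h group also had the lowest fibroblast marker level of the 15 (9.04). The part of these levels in the cystatin differences was not tested.

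From 792 h to 1368 h the same 4 members came down. CST4 fell by 1.90 (SE 0.19, adjusted p 4.11e-05), CST1 by 1.45 (SE 0.16, adjusted p 0.000104), CST2 by 1.45 (SE 0.13, adjusted p 1.2e-05) and CST3 by 0.45 (SE 0.07, adjusted p 0.0018), each in every alternative, where 6.18% of features fell. CSTB went the other way, higher by 0.25 (SE 0.06, adjusted p 0.0105), where 6.13% of features rose; it lost the call without 1368 h replicate 2 (adjusted p 0.091). CST6 (0.05, adjusted p 0.711) did not pass. ERK output stayed at 1.09 and 1.12 at these labels, and the mitotic level stood at -1.29 and -0.34.

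**Figure D2:**
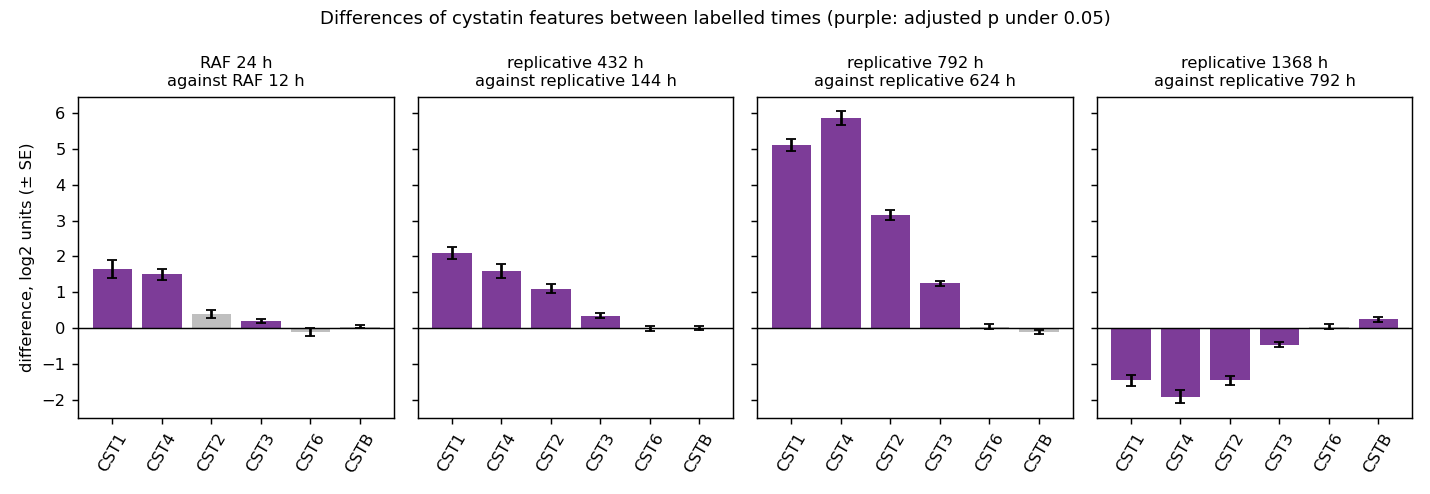
Differences in log2 units (bars) with their SE (whiskers) for 6 cystatin features in 4 comparisons of labelled times that each lie within 1 end of the first principal component. Purple bars passed at an adjusted p under 0.05; at replicative 792 h against 624 h CST4 stands at 5.85 and CST1 at 5.10, and at 1368 h against 792 h CSTB is the 1 purple bar above 0.

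Over the span from 144 h to 1368 h, which joins the ends, CST1 rose by 4.15 (SE 0.16), CST4 by 3.95 (SE 0.19), CST2 by 2.50 (SE 0.13) and CST3 by 0.50 (SE 0.07), at adjusted p of 2.41e-09, 1.4e-08, 1.86e-08 and 0.000137 and in every alternative. CSTB rose by 0.15 (SE 0.06, adjusted p 0.0347), which is little more than 1 rounding step. Its call was lost under quantile normalization (0.05, adjusted p 0.435), without 1368 h replicate 2 (adjusted p 0.213) and without 144 h replicate 1 (0.0939) or replicate 2 (0.0948). Thus 5 of 6 members rose where 28.1% of features rose and 29.8% fell, and CST6 (-0.15, adjusted p 0.093) did not pass.

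Against replicative T0, which lies at the upper end, the arrays labelled 144 h differed by -1.05 (SE 0.16) for CST1, -1.10 (SE 0.13) for CST2 and -0.60 (SE 0.19) for CST4, without a test. In limma CST3 rose by 0.20 (SE 0.07, adjusted p 0.0367), CST6 rose by 0.20 (SE 0.07, adjusted p 0.0312) and CSTB fell by 0.15 (SE 0.06, adjusted p 0.0342), so that 3 of 3 tested members passed in a comparison that called 58.7% of features, 30.1% higher and 28.6% lower. CST3 lost the call without T0 replicate 1 or replicate 2 (adjusted p 0.105 each) or 144 h replicate 2 (0.31). CST6 lost it without T0 replicate 2 (0.177) or 144 h replicate 1 (0.174) and in a model of all 30 arrays (0.0509). CSTB lost it without T0 replicate 2 (0.217), without 144 h replicate 1 (0.0928) or replicate 2 (0.0936) and under quantile normalization (0.434). The 2112 h arrays, the other groups of the choice, stood above T0 by 1.35 for CST1, 1.45 for CST4, 0.70 for CST2 and 0.40 for CST3.

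Within each end, the 4 cystatins tended to be higher where mitotic signal was lower, with exceptions. Replicative T0, at a mitotic level of 1.94, had more CST1, CST2 and CST4 than 624 h, at 1.55 (CST1 7.15 against 6.60). For CST3 the arrays of these groups overlapped. In the lower end replicative 144 h, at 0.32, had less CST2 (6.10) than RAF 12 h (6.40), and less CST1 (6.10) than RAF 96 h (6.45). The CST2 mean at RAF 96 h (6.30) was also higher than at 144 h, but with overlapping arrays. A further exception there was replicative 264 h, at -0.86. It had more of all 4 than 432 h, at -1.01, without overlap of arrays (CST1 9.35 against 8.2). Groups of similar mitotic level also differed. RAF 24 h, at -0.82, had CST1 at 7.75, below 264 h. In the upper end 2112 h, at 1.45, had CST1 at 8.5, and 624 h, at 1.55, had it at 6.60. Across the 6 upper-end group means the correlation with the mitotic list was -0.960 for CST1, -0.963 for CST4, -0.923 for CST2 and -0.952 for CST3. Across the 9 of the lower end it was -0.835, -0.844, -0.693 and -0.830. CST6 gave -0.536 and 0.152, and CSTB 0.496 and 0.186. ERK output correlated with CST1 in opposite directions, at 0.825 in the upper end and -0.818 in the lower, where its group means covered only -0.58 to -0.40. The groups of a course share their cells and handling, so these values describe 15 points and carry no p.

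**Figure D3:**
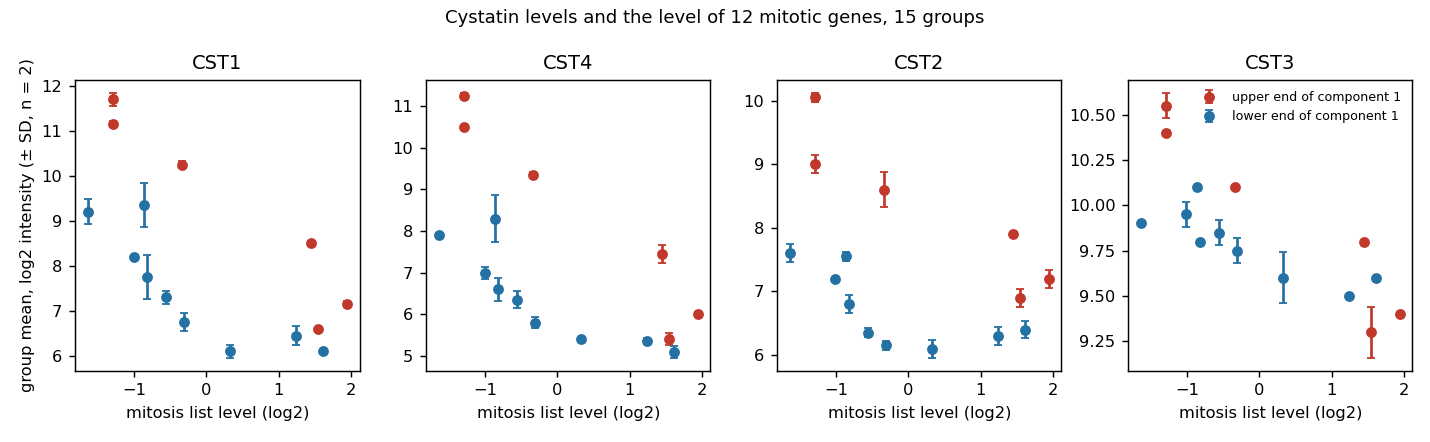
Group means of 4 cystatin features (vertical axis, log2 intensity ± SD, n = 2, with a range of its own in each panel) against the mean centred level of 12 mitotic genes (horizontal axis, log2 units), coloured by end of the first principal component. Points tend to lie lower toward the right, with exceptions. In the upper end replicative T0, with the highest mitotic level, has a mean above 624 h in all 4 panels. For CST3 the arrays of these groups overlap. In the lower end CST2 levels off at the right. There replicative 264 h, with a higher mitotic level than 432 h, has a mean above 432 h in all 4 panels. The r for CST1 is -0.960 in the 6 upper-end groups and -0.835 in the 9 lower-end groups.

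By the rule of highest Pearson r over the 15 group means, the genes most like CST1 were EPB41L1 (r = 0.969), ANKRD42 (0.963) and SRPX2 (0.961). All 3 are highest at replicative 792 h, and for SRPX2 the values within the ends were 0.991 and 0.967. EPB41L1 (0.970) and ANKRD42 (0.963) were also among the 3 most like CST4, with the lysosomal sulfatase gene IDS (0.966). USP13, a deubiquitinating enzyme, ran most opposite to both, at -0.978 and -0.982. For CST2 they were BTN2A2 (0.972), RBSN (0.955) and RPS6KA5 (0.954), with FAM171A1 opposite (-0.981), and for CST3 OTUD5 (0.968), WIPI2 (0.950) and BCRP2 (0.945), with ADGRG6 opposite (-0.970). Some of these genes had narrow ranges of group means, so that their likeness rests on few rounding steps: RBSN (6.8 to 7.1), BCRP2 (6.6 to 7.05) and OTUD5 (7.9 to 8.45). CST6 and CSTB themselves vary by only 0.30, so that likeness to them rests on a few rounding steps. Those nearest to CST6 were RNA5SP446 (0.956), MIR33B (0.955) and ATP2A1 (0.946), with HPN opposite (-0.952). CST6 means separate the 2 ends, and within the ends its likeness was uneven. In the upper and lower end ATP2A1 gave 0.324 and 0.884, and MIR33B 1 and 0.62. RNA5SP446 gave 0.849 and 0.682 there, and HPN -0.686 and -0.754. Those nearest to CSTB were IMPA1P (0.796), RBFA (0.786) and NRAV (0.781), with DLG5-AS1 opposite (-0.851).

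Other genes of the cystatin superfamily varied over narrower ranges than the 4 chromosome 20 members. Of 11 listed, 9 had a feature, and the widest span of group means among them was 0.90, for CST9L, whose level averaged 3.61. In the chromosome 20 cluster CST5, cystatin D, next to CST2, spanned 0.55 units, CST9, next to CST3, 0.40, CST8 0.35 and CSTL1 0.20, all low or flat beside the 1.25 to 6.15 units of the 4 members there. CST7, cystatin F of immune cells, spanned 0.80 and was higher at 624 h than at 432 h by 0.55 (SE 0.07, adjusted p 4.88e-05). That step crosses the ends of the first component, and 2 of the 9 rose where 21.1% of all features did. CST5 rose by 0.35 (SE 0.10, adjusted p 0.0463) from 144 h to 432 h, 1 of the 9 to rise where 6.16% of all features did.

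The enzymes that cystatins inhibit changed in both directions. Of 12 cysteine cathepsins and legumain, 8 rose and 3 fell from 624 h to 792 h, where 15.8% of all features rose and 15.3% fell, with a median difference of 0.28 against 0.00 over all features. CTSL, the lysosomal endoprotease cathepsin L, rose by 2.40 (SE 0.06, adjusted p 3.21e-11), cathepsin B (CTSB) by 1.10 (SE 0.05), the collagen-degrading CTSK by 1.05 (SE 0.07) and CTSS by 1.0 (SE 0.07). CTSC, which activates granule serine proteases, fell by 1.55 (SE 0.08, adjusted p 2.3e-08), legumain (LGMN), the asparaginyl endopeptidase, by 0.50 (SE 0.07) and CTSZ by 0.35 (SE 0.05). From 792 h to 1368 h, where 6.18% of all features fell and 6.13% rose, 4 of the 12 fell and none rose, CTSL by 0.65 (SE 0.06), CTSS by 0.55 (SE 0.07), CTSB by 0.45 (SE 0.05) and CTSO by 0.35 (SE 0.07).

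CTSL shared the upper peak of the cystatins but not the lower one. It read 8.7 in both 624 h arrays, 11.1 in both 792 h arrays, 10.8 in both at 1008 h, 10.4 to 10.5 at 1368 h and 9.5 to 9.6 at 2112 h. At 144 h, 264 h and 432 h it averaged 8.95, 8.75 and 8.80, with no peak at 264 h, where CST1 and CST4 were at 9.35 ± 0.49 and 8.30 ± 0.57. LGMN followed neither peak: it averaged 8.0, 8.75 and 9.10 at those labels, highest at 432 h, and 7.85 at 624 h, 7.35 at 792 h and 6.90 at 1008 h. In the RAF course from 12 h to 24 h, where 6.02% of all features rose and 6.56% fell, 5 of the 12 rose and none fell, with LGMN up by 1.25 (SE 0.07, adjusted p 6.35e-05), CTSH by 0.85 (SE 0.09), CTSL and CTSC by 0.45 each (SE 0.05 and 0.09) and CTSZ by 0.30 (SE 0.04). Between 144 h and 432 h, where 6.16% of all features rose and 5.05% fell, 3 rose, LGMN by 1.10 (SE 0.07), CTSC by 0.50 (SE 0.08) and CTSH by 0.30 (SE 0.05), and CTSK fell by 0.25 (SE 0.07). Of the 4 cathepsins that are not cysteine proteases, CTSA and CTSD rose from 624 h to 792 h, by 0.25 (SE 0.06) and 0.40 (SE 0.06), and CTSE and CTSG did not pass.

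**Figure D4:**
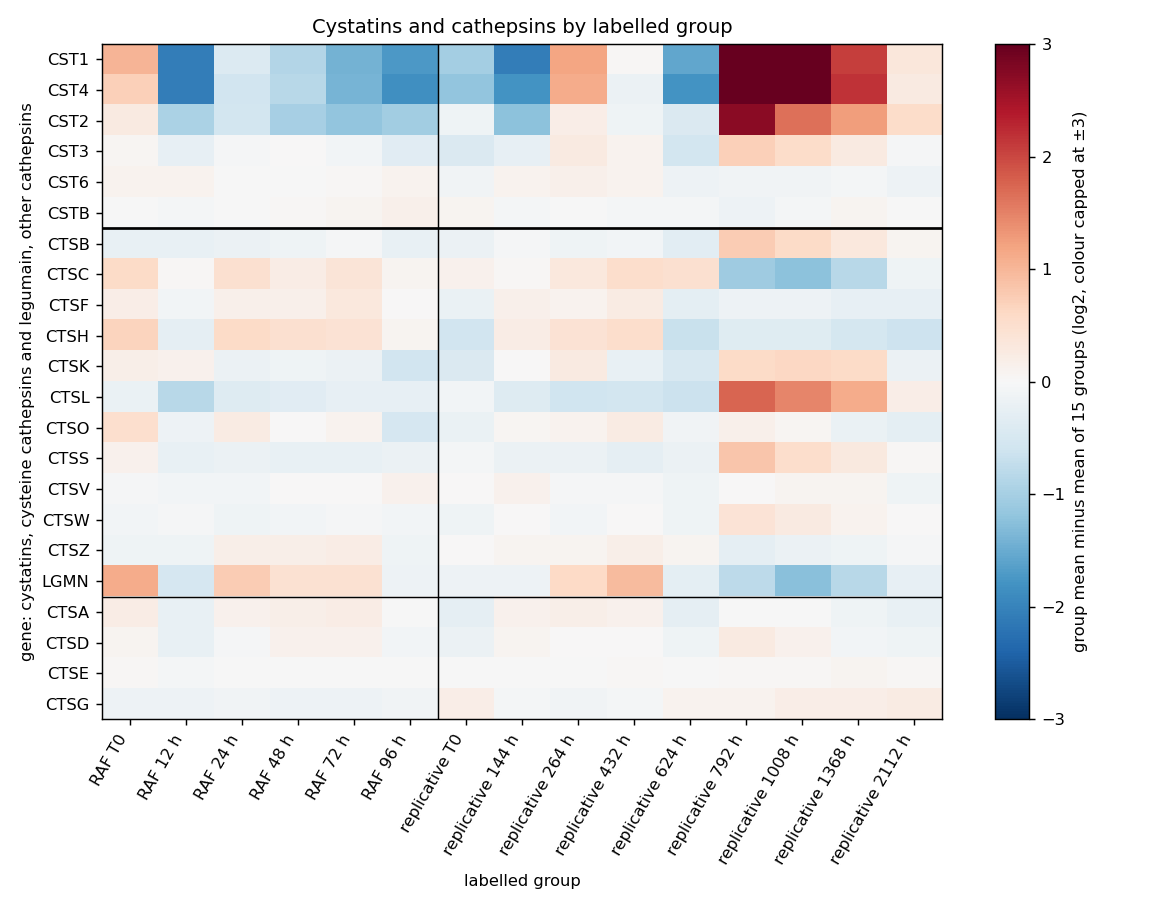
Group mean minus the mean of the 15 groups (colour, log2 units, capped at 3 in either direction) for 6 cystatins (top block), 12 cysteine cathepsins and legumain (middle) and 4 other cathepsins (bottom) by labelled group, with the RAF course left of the vertical line. CTSL is red with the salivary cystatins from replicative 792 h to 1368 h, while LGMN and CTSC are blue there and red at RAF T0.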

How the data were processed

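Total RNA was hybridised to Affymetrix HTA 2.0 arrays after WT PLUS labelling, per the labels' protocols. The deposited values of 52329 features were taken for log2 intensities from their range, -1.6 to 14. Every one of the 30 arrays has a median of 5.5. The sources used here state neither log base, summarisation, normalization nor build. Without scanner files no background call was possible, and the number of arrays limits precision. Groups came from the titles. The 2 arrays of a group correlated at 0.9921 to 0.9969. Differences were fitted with limma 3.58.1 in R 4.3.3 (with the data.table package, version 1.17.8), with 1 model for 12 RAF arrays (6 residual degrees of freedom) and 1 for 18 replicative arrays (9), adjusted over all features, two-sided, and tested on simulated data. The alternatives were quantile normalization, a model of all arrays, a level filter, a trended robust prior, a replicate block and leaving out each array. Restricting to 1 end of the first component was added after seeing the data. Members, lists and the rule for named genes (members, list genes, and per member the 3 highest and 1 lowest correlations of group means) were chosen with earlier results of these data known. No member has a further feature, so that alternative could not be run.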

Additional observations from a re-analysis of the deposited data

How the results depend on the processing

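No member result that passed its test changed direction under the alternatives run. Of 72 member results, quantile normalization kept 69 on their side of the threshold, a model over all 30 arrays 68, the level filter 70, the trended robust prior 71 and the replicate block 70, and leaving out 1 array kept 319 of 372. Replicate numbers did not pair the arrays: same-numbered deviations correlated at -0.0624 to 0.358 in the RAF course and -0.277 to 0.312 in the replicative course. With the replicate block the RAF 12 h to 72 h joint count was 4714 features against 5348, and CST2 (adjusted p 0.0573) and CST3 (0.0566) lost that call. CST2 at RAF 24 h against 12 h (0.40) passed with all 30 arrays (adjusted p 0.0333), the filter (0.0346) and the trended prior (0.0295).

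Counts of called features that moved by over 1.5 times were these. With all 30 arrays, the RAF joint test called 8689, RAF 48 h against 24 h 107 and RAF 72 h against 48 h 32, both from 0. With the level filter, which tests fewer features, RAF 48 h against 24 h gave 20, the replicative joint test 21495 (from 37953), 624 h against 432 h 14008 (from 23780), 1368 h against 144 h 16931 (from 30306) and 144 h against T0 16897 (from 30739). Restricting the replicative joint test to 144 h to 432 h gave 6211 and to 624 h to 1368 h 16829, over fewer groups. Leaving out 1 array gave 1769 to 5146 in the RAF joint test, 3551 to 4426 for RAF 24 h against 12 h (from 6584), 0 to 5 for RAF 48 h against 24 h, 1852 to 2622 for RAF 72 h against 12 h (from 4790), 3030 to 3734 for replicative 432 h against 144 h (from 5864) and 3749 to 4769 for 1368 h against 792 h (from 6441). Other causes were not tested.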
